A study of Mus musculus with 24 samples.

Results

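The MHC class II genes are followed here as 10 genes: the classical chains H2-Aa, H2-Ab1 and H2-Eb1, the invariant chain Cd74, the H2-DM chains H2-DMa, H2-DMb1 and H2-DMb2, the H2-DO chains H2-Oa and H2-Ob, and the transactivator Ciita. They were chosen by name from the 55414 genes in the count files, and all 10 passed the filter on low counts in every fit. The series measured poly(A) RNA in 24 libraries from bone marrow of C57BL6/J mice, WT or Srcap mutant, with 2 libraries in each of 12 groups. Srcap encodes the ATPase of a chromatin remodelling complex, and the series title ties its mutation to clonal hematopoiesis. Hematopoietic stem and progenitor cells (HSPCs) were untreated, taken 12 hours after an intraperitoneal dose of doxorubicin, 2 weeks after transplantation, or 20 weeks after competitive transplantation. Libraries labelled B cells and T cells came from the 2-week transplantation only. Headers of the files write het for mutant HSPCs of the untreated, doxorubicin and 20-week groups, write Mut at 2 weeks, and describe the allele no further. The headers call the HSPCs LSK, a gate for lineage-negative cells with Sca-1 and Kit. The design text names donor test cells carrying CD45.2 for the 20-week transplantation. The labels call the samples independent but do not say that they came from separate animals, so p-values measure only the spread between these samples.

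Class II molecules are cell-surface heterodimers that present peptides from endocytosed proteins to CD4 T cells, and they are best known from B cells, dendritic cells and macrophages. The invariant chain blocks the peptide groove and guides the dimer to endosomes. There H2-DM exchanges the remaining invariant-chain fragment for peptides, and H2-DO restrains H2-DM in B cells and some dendritic cells. Ciita does not bind DNA itself. It is recruited to promoters by factors bound to the conserved X and Y boxes, and its own level is thought to set class II transcription in most cell types.

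The H2 genes lie within 1 stretch of chromosome 17, from the start of H2-Oa at 34311314 to the end of H2-Eb1 at 34535648 in GRCm39, the build of the files. Ciita lies on chromosome 16 from 10297923 to 10346282. Values are counts over the exons of each gene. RefSeq promoter windows of GRCm38.p6 were at hand for 7 of the 10 genes, the exceptions being H2-Ab1, Cd74 and Ciita. They are shown because 4 of them share the X box letters. Each window runs from -140 to -31 relative to the annotated start, 5′ to 3′ on the strand of the gene. Capitals mark the letters AAC, any 2 bases and ATGATGC (X box), CCAAT or its reverse complement (Y box) and, in H2-Aa, the cAMP response element TGACGTCA.
H2-Eb1: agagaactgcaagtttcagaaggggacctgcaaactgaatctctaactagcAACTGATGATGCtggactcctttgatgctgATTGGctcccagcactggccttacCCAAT
H2-DMb1: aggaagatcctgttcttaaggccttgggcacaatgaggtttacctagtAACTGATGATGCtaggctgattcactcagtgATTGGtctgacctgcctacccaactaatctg
H2-DMb2: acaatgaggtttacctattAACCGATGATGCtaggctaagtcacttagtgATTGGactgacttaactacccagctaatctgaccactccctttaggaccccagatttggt
H2-Ob: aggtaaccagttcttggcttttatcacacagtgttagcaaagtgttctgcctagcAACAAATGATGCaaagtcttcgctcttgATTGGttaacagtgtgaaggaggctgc
H2-Aa: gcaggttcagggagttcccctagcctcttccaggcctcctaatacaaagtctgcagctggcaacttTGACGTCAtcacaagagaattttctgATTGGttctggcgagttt
H2-Oa: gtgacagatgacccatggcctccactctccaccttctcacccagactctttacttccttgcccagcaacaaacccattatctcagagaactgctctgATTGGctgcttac

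The windows lie at chr17:34305727-34305836 (H2-Eb1, plus strand), chr17:34153051-34153160 (H2-DMb1, plus strand), chr17:34145109-34145218 (H2-DMb2, plus strand), chr17:34238765-34238874 (H2-Ob, plus strand), chr17:34287854-34287963 (H2-Aa, minus strand) and chr17:34092239-34092348 (H2-Oa, plus strand). The X box letters were chosen after these promoters had been read, and both strands of the 250 bases before each start were searched. They occurred in 10 of 32851 promoters, 0.03%. In 4 promoters, 0.012%, a Y box followed on the other strand within 50 bases. These were H2-Eb1, with the X letters at -89 and the Y box at -59, H2-DMb1 (-92 and -61), H2-DMb2 (-121 and -90) and H2-Ob (-85 and -57). H2-Aa and H2-Oa held a Y box, at -48 and -43, without these X letters. The Y box letters alone occurred in 33.85% of all promoters and TGACGTCA in 1.55%. Neither of the 2 H2-DMa promoters held the X letters. A match describes letters and does not show that a factor binds there.

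Each library held between 26369992 and 78432483 counts. Libraries labelled T cells carried neutrophil and monocyte RNA: the summed level of 8 neutrophil genes was 126100 to 147900 CPM (counts scaled to the total of each library) and Csf1r, the receptor of monocytes and macrophages, stood at 357 to 448 CPM. Cd3e, part of the T cell receptor complex, stayed at or under 1.56 CPM in them. Cd3d, another chain of that complex, measured 7.44 to 8.76 CPM, above all other libraries (at most 6.66 CPM, in B cells). The summed level of 8 T cell genes was 13.4 to 20.1 CPM in them, against 46.4 to 126 CPM in HSPCs. These libraries are therefore called T-labelled below. B cell libraries held the B lineage gene Pax5 at 1129 to 1527 CPM. Sums of B cell precursor markers in them were 1777 to 2128 CPM, with Rag1 at 812 to 1189 CPM and Dntt at 33.2 to 105 CPM. They also held erythroid sums of 6119 to 16300 CPM and neutrophil sums of 3384 to 12270 CPM. In 2-week HSPCs the erythroid and neutrophil sums were 155 to 874 CPM and 940 to 3301 CPM. HSPC libraries held Kit at 311 to 601 CPM, but at 2 weeks Ly6a, which encodes Sca-1, was 30.8 to 48 CPM against 165 to 206 CPM in untreated HSPCs. WT untreated replicate 1 stood apart by neutrophil RNA, with a sum of 22150 CPM. The 2-week libraries came from female mice by Xist and the other HSPC libraries from male mice by Ddx3y, and each of the 3 header directories holds its own conditions. The 2-week HSPCs therefore differ from the other HSPCs in sex and directory too, and the 20-week HSPCs differ from untreated ones in directory, and these cannot be told apart from the condition. Genotypes, doxorubicin against untreated, and the sorted populations at 2 weeks were compared within 1 directory and sex. Srcap itself ran from 2.83 to 20.3 CPM, with no fixed direction: mutant libraries lay above WT in untreated HSPCs and below WT in 2-week HSPCs. Its level therefore does not check the labels.

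The 10 genes together took 0.33% to 0.47% of all counts in 20-week HSPCs and 0.248% to 0.311% in B cells. In untreated, doxorubicin-treated and 2-week HSPCs and in T-labelled libraries the share was 0.0455% to 0.12%. HSPCs 20 weeks after transplantation thus held more summed class II RNA than sorted B cells, and the 2 ranges did not overlap. By gene, the classical chains, H2-DMa and H2-DMb1 were higher at 20 weeks with separate ranges. Ciita (73.5 to 91.1 against 28.3 to 44.9 CPM) and H2-Ob (192 to 283 against 123 to 153 CPM) were higher in B cells, also with separate ranges. Ranges of Cd74, H2-Oa and H2-DMb2 overlapped between the 2 populations. These 2 populations also differ in time after transplantation, sex and directory, which cannot be told apart from cell type here. No fit held both, so levels and ratios set side by side for them are descriptions. Summed CPM was 4.26 times higher at 20 weeks than in untreated HSPCs (means of 4 libraries each). In these bulk libraries, fewer cells of a type and less RNA per cell cannot be told apart.

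**Figure D1:**
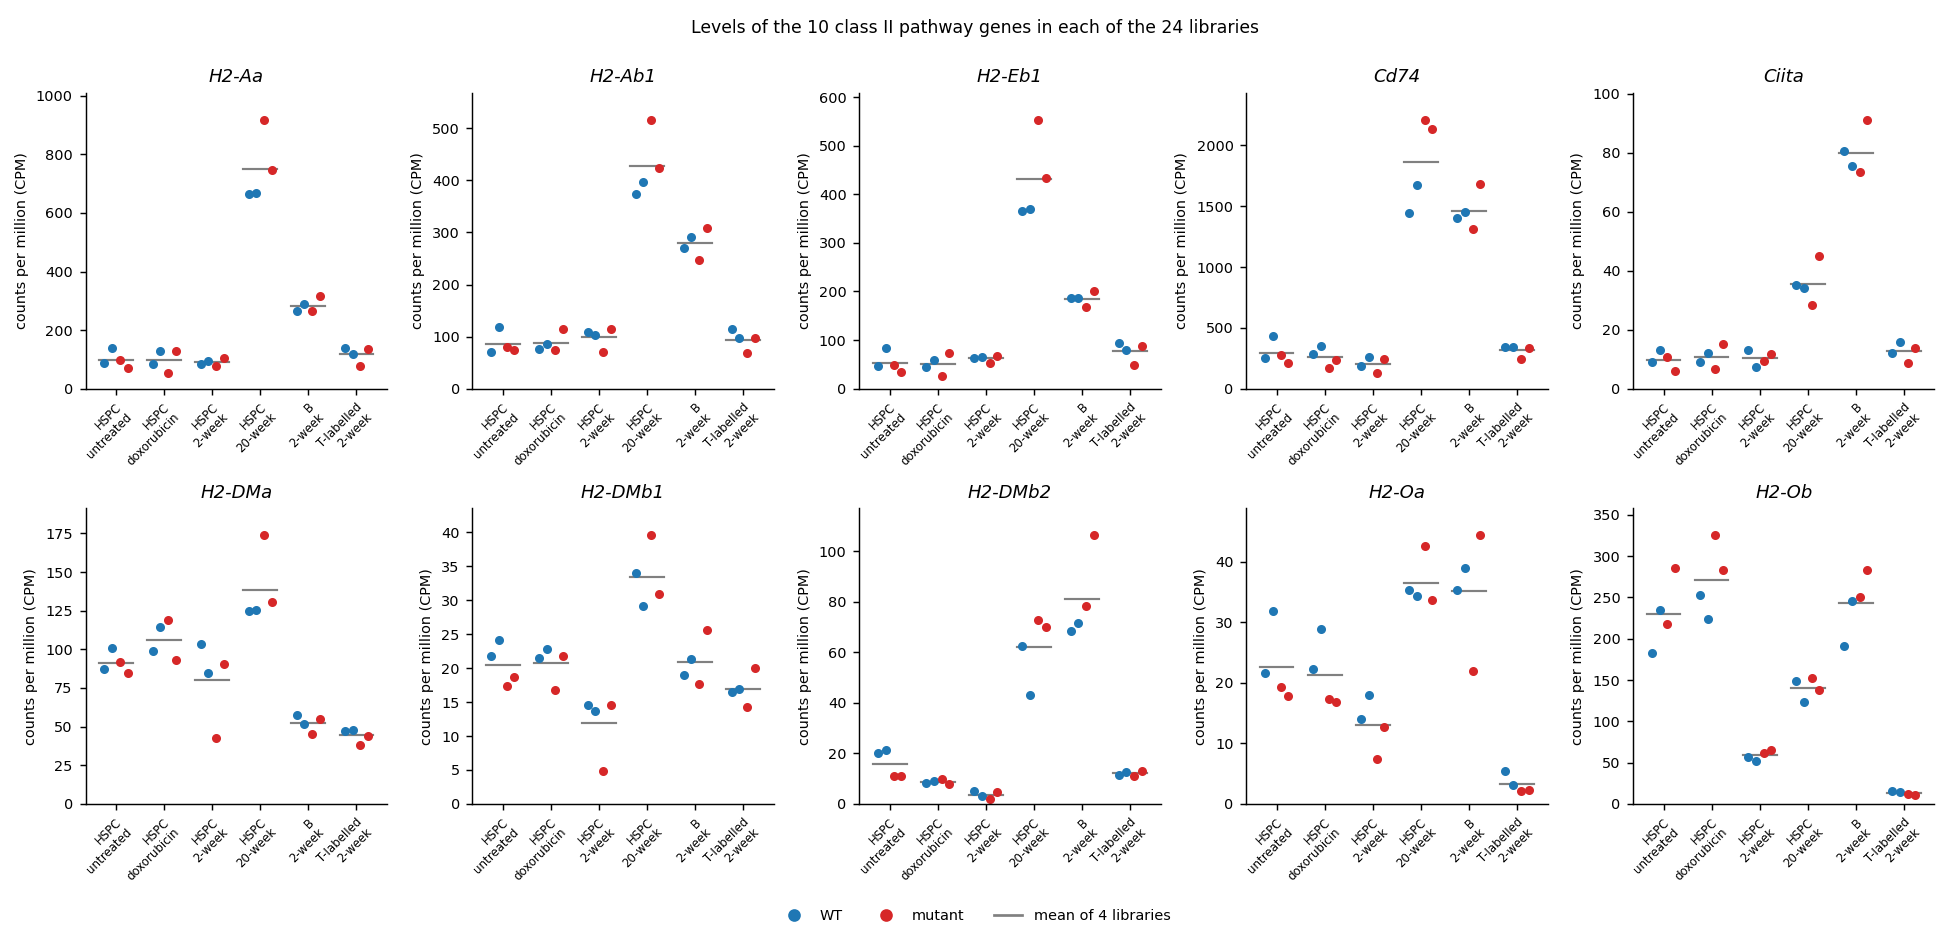
CPM of each of the 10 genes in the 24 libraries, with 1 panel per gene and its own axis from 0. Blue points are WT and red points mutant libraries, and the grey line is the mean of the 4 libraries of a cell type and condition. The classical chains and Cd74 peak in 20-week HSPCs, Ciita and H2-DMb2 have their highest means in B cells, and H2-Ob is highest in untreated and doxorubicin-treated HSPCs and in B cells.

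The classical chains rose most at 20 weeks, together with Cd74. H2-Aa, the I-A alpha chain, measured 664 and 669 CPM (WT) and 917 and 745 CPM (mutant) in 20-week HSPCs. In untreated HSPCs it measured 89.3 and 140 CPM (WT) and 98.2 and 70.6 CPM (mutant), and in B cells 265 and 290 CPM (WT) and 265 and 315 CPM (mutant). All 4 libraries at 20 weeks lay above every B cell library, and all B cell libraries lay above every untreated one. The fitted difference between 20-week and untreated HSPCs was 3.28 ± 0.30 (log2 fold change ± SE, edgeR quasi-likelihood test, Benjamini-Hochberg adjusted p = 6.93e-05). H2-Ab1, the I-A beta chain, went from 70.8 to 118 CPM untreated to 375 to 516 CPM at 20 weeks, and its log2 change was 2.67 ± 0.19 (adjusted p = 5e-07). H2-Eb1, the I-E beta chain, went from 34.6 to 83.7 CPM to 367 to 553 CPM, with a log2 change of 3.38 ± 0.33 (adjusted p = 0.000157). The alpha chain partner of I-E is a pseudogene in this annotation, H2-Ea-ps, and had at most 0.136 CPM in any library.

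Cd74, the invariant chain, had the highest level per kilobase of exon among the 10 genes. Its CPM values at 20 weeks were 1448 and 1672 in WT and 2208 and 2134 in mutant HSPCs, against 251 and 430 in WT and 276 and 208 in mutant untreated HSPCs. The untreated and 20-week libraries did not overlap, while the 20-week range overlapped that of B cells (1310 to 1679 CPM). The log2 change at 20 weeks was 3.05 ± 0.25 (edgeR adjusted p = 1.65e-05). Per kilobase of exon, Cd74 stood at 5.12 ± 0.59 times the level of H2-Ab1 in untreated HSPCs, 6.65 ± 0.76 at 20 weeks, 8 ± 0.31 in B cells and 3.14 ± 0.58 in 2-week HSPCs (SD, n = 4 each). The 2-week ratios lay below all B cell ratios.

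Ciita, the transactivator, was highest in B cells, as was H2-DMb2, whereas the classical chains and Cd74 had their highest means at 20 weeks. In B cells Ciita stood at 80.5 and 75.4 CPM (WT) and 73.5 and 91.1 CPM (mutant). At 20 weeks HSPCs held 35.2 and 34.2 CPM (WT) and 28.3 and 44.9 CPM (mutant), and untreated HSPCs held 8.92 and 13.1 CPM (WT) and 10.6 and 6.14 CPM (mutant). The 3 ranges were separate, in the order B cells, 20-week HSPCs, untreated HSPCs. Its log2 change from untreated to 20-week HSPCs was 2.26 ± 0.29 (edgeR adjusted p = 0.000134). Per kilobase, H2-Aa stood at 8.27 to 9.66 times Ciita in B cells, 41.7 to 81.3 times at 20 weeks and 23.2 to 28.8 times in untreated HSPCs. B cells therefore held the least H2-Aa RNA per Ciita RNA of the 6 cell types and conditions, and 20-week HSPCs the most.

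H2-DM is the peptide exchanger, and its beta chain is encoded by a pair of neighbouring genes, H2-DMb1 and H2-DMb2. Of the 75-base stretches of H2-DMb1, 15.84% also occur in H2-DMb2, and 16.14% of those of H2-DMb2 occur in H2-DMb1 or other transcripts, so their counts are less certain than those of the other 8 genes, which share none. H2-DMb2 showed the widest range of the DM genes. It measured 20.3 and 21.3 CPM (WT) and 11.2 and 11.2 CPM (mutant) in untreated HSPCs, and 8.27 and 8.92 CPM (WT) and 9.93 and 7.71 CPM (mutant) after doxorubicin. At 2 weeks it measured 4.92 and 3.02 CPM (WT) and 1.91 and 4.74 CPM (mutant), and at 20 weeks 62.6 and 43 CPM (WT) and 73 and 70.1 CPM (mutant). The 4 HSPC conditions had separate ranges, and the B cell range, 68.6 to 106 CPM, overlapped only that of 20-week HSPCs. H2-DMb1 moved less, from 17.4 to 24.2 CPM untreated to 29.2 to 39.6 CPM at 20 weeks. H2-DMa, the alpha chain, went from 84.7 to 101 CPM to 125 to 174 CPM.

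At 20 weeks against untreated HSPCs the log2 change was 2.36 ± 0.21 for H2-DMb2 (edgeR adjusted p = 1.82e-06), 1.07 ± 0.22 for H2-DMb1 and 0.95 ± 0.17 for H2-DMa, all past the threshold. The share of H2-DMb2 among both beta chains, per kilobase, was 41.9 ± 5.4% in untreated HSPCs, 29 ± 4.9% after doxorubicin, 23.4 ± 4.3% at 2 weeks, 63.8 ± 4.0% at 20 weeks, 78.7 ± 2.1% in B cells and 40.8 ± 1.7% in T-labelled libraries (SD, n = 4 each). The B cell shares lay above every other library, and the 20-week shares lay above all remaining ones. H2-DMa shares its genomic span with 4 annotated genes, 1 of them on its own strand, and counting used strand.

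H2-DO, the modulator of H2-DM, gave the only member that was lower at 20 weeks. H2-Ob, the beta chain, measured 183 and 235 CPM (WT) and 218 and 286 CPM (mutant) in untreated HSPCs, and 149 and 123 CPM (WT) and 153 and 138 CPM (mutant) at 20 weeks. The ranges were separate, with means of 230.5 CPM untreated and 140.8 CPM at 20 weeks. The log2 change in the fit, which scales libraries by TMM, was smaller than on CPM, at -0.35 ± 0.11 (edgeR adjusted p = 0.029). This call was lost when any of 4 libraries was left out: WT untreated replicate 2, mutant untreated replicate 2, WT 20-week replicate 1 or WT 20-week replicate 2, with the highest adjusted p at 0.193. H2-Oa, the alpha chain, went the other way, from 17.8 to 31.8 CPM untreated to 33.6 to 42.6 CPM at 20 weeks, a log2 change of 1.07 ± 0.17 (adjusted p = 0.000248). Per kilobase, H2-Ob stood at 1.93 to 4.21 times H2-Oa in untreated HSPCs, 2.03 to 4.91 times after doxorubicin and 0.935 to 1.11 times at 20 weeks. Across the 16 HSPC libraries H2-Ob did not follow the classical chains (Pearson r of log2 values -0.06 with H2-Aa), whereas Cd74 did (r = 0.98). These correlations describe 16 libraries that share conditions and directories.

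In the comparison of 20-week with untreated HSPCs, 9 of the 10 genes were thus called higher and 1 lower, against 13.1% and 10.6% of all 19522 genes tested. The members' median log2 change was 2.31, and that of all genes was 0.02. Without WT untreated replicate 1, the library with neutrophil RNA, all 10 calls stood. Against 2-week HSPCs, all 10 genes were higher at 20 weeks, where 23% of all genes were called higher and 19% lower. The largest of these changes was that of H2-DMb2, 4.37 ± 0.23 (edgeR adjusted p = 2.84e-10), and the smallest was that of H2-DMa, 1.08 ± 0.18. The comparison of untreated with 20-week HSPCs and that of 2-week with 20-week HSPCs share the 20-week libraries.

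**Figure D2:**
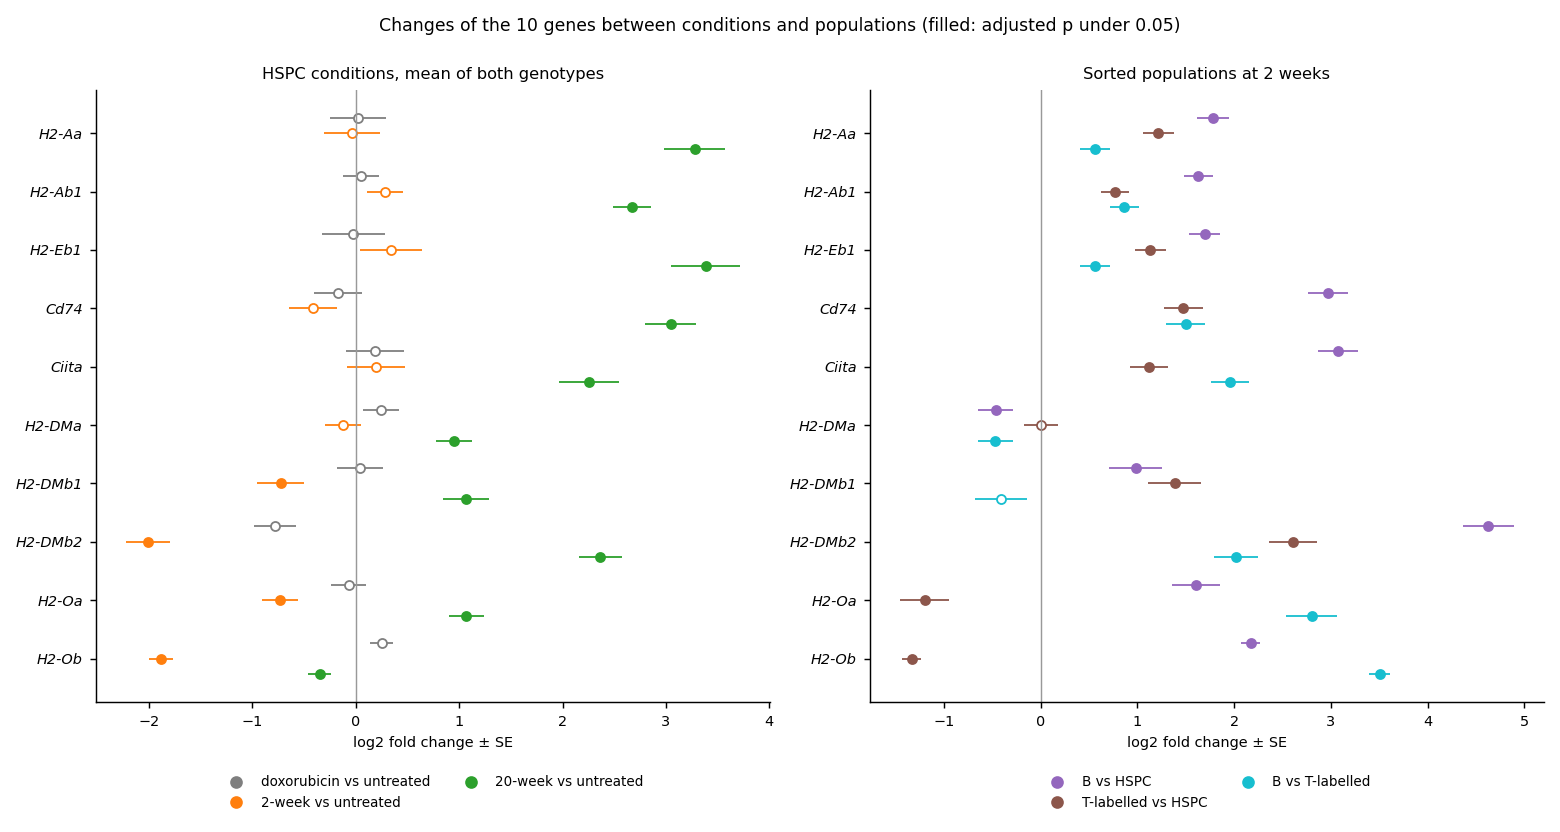
Log2 fold changes of the 10 genes with their SE from edgeR, between HSPC conditions (left) and between sorted populations at 2 weeks (right). Filled points have an adjusted p under 0.05 and open points do not. At 20 weeks 9 genes lie right of 0 and H2-Ob left of it, while no gene passes after doxorubicin.

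At 2 weeks after transplantation, HSPCs had less RNA of H2-Ob, H2-Oa, H2-DMb1 and H2-DMb2 than untreated HSPCs, and the other 6 genes were not called. H2-Ob fell from 183 to 286 CPM in untreated HSPCs to 56.9 and 51.5 CPM (WT) and 61.3 and 65 CPM (mutant) in 2-week HSPCs, a log2 change of -1.89 ± 0.12 (edgeR adjusted p = 8.22e-10). H2-DMb2 fell by 2.01 ± 0.21 (adjusted p = 7.59e-07), H2-Oa by 0.73 ± 0.17 (adjusted p = 0.00174) and H2-DMb1 by 0.73 ± 0.22 (adjusted p = 0.0137) on the log2 scale. In this comparison 4 of the 10 genes were called lower and 0 higher, against 24.9% and 21.2% of all genes tested. The untreated and 2-week ranges were separate for H2-Ob, H2-DMb2 and H2-DMb1, and H2-Oa overlapped by 1 library at 18 CPM. The log2 changes of H2-Aa, H2-Ab1, H2-Eb1 and Ciita lay between -0.04 and 0.34, each with an adjusted p of at least 0.199. H2-Ab1 was called higher without WT untreated replicate 2 (0.48, adjusted p = 0.0251). Cd74 had a log2 change of -0.41 ± 0.23 (adjusted p = 0.17), and it was called lower in 4 of 14 alternatives: without WT untreated replicate 1, without mutant 2-week replicate 2, with the replicate block and without the count filter. H2-DMa was called lower in 1 alternative, without mutant 2-week replicate 2. Cell type markers moved beside these changes. All 4 mature B cell markers were lower at 2 weeks, with sums of 8.68 to 13.8 CPM against 37.5 to 77.6 CPM, and so were all 5 plasma cell markers, with sums of 556 to 1160 CPM against 3449 to 6826 CPM. Of 9 HSPC markers 8 were lower (sums of 1163 to 1584 CPM against 2804 to 3558 CPM), while 7 of 9 monocyte markers and 6 of 6 erythroid markers were higher. Sums of B cell precursor markers (925 to 2082 against 2375 to 4029 CPM) and plasmacytoid dendritic cell markers (118 to 150 against 371 to 434 CPM) were lower at 2 weeks. Sums of conventional dendritic cell markers were higher (45 to 56.8 against 22.8 to 31.5 CPM), although means of Itgax, Cd209a and Batf3 were lower. The part of these cell types in the class II changes was not tested.

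After doxorubicin 0 of the 10 genes were called by edgeR, 2 had an unadjusted p under 0.05 (H2-DMb2 and H2-Ob), and DESeq2 called 1. Of all genes, 0.0154% were called in edgeR. The lowest p belonged to H2-DMb2, with a log2 change of -0.79 ± 0.20 (unadjusted p = 0.0012, adjusted p = 0.412), and this is the gene that DESeq2 called. Its 4 libraries after doxorubicin, 7.71 to 9.93 CPM, lay below the 4 untreated ones, 11.2 to 21.3 CPM.

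Among the sorted populations at 2 weeks, B cells held more class II RNA than HSPCs from the same transplantation. Here 9 of the 10 genes were called higher and H2-DMa lower, against 28.3% and 25.5% of the 19018 genes tested. The changes were 4.63 ± 0.26 for H2-DMb2 (edgeR adjusted p = 3.5e-08), 3.08 ± 0.21 for Ciita (adjusted p = 5.21e-08), 2.97 ± 0.21 for Cd74 (adjusted p = 6.4e-07) and 2.17 ± 0.10 for H2-Ob (adjusted p = 4.26e-10). The classical chains changed by 1.63 to 1.78, H2-Oa by 1.60 ± 0.25 and H2-DMb1 by 0.98 ± 0.27. H2-DMa measured 45.4 to 57.5 CPM in B cells and 42.8 to 103 CPM in 2-week HSPCs, and its call (log2 change -0.47 ± 0.18, adjusted p = 0.0465) was lost in 7 of 14 alternatives. Its lowest HSPC library, mutant 2-week replicate 1, lay below all B cell libraries.

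T-labelled libraries differed from 2-week HSPCs in the opposite direction for H2-DO. H2-Oa was lower by a log2 change of -1.20 ± 0.25 (edgeR adjusted p = 0.000953) and H2-Ob by -1.33 ± 0.10 (adjusted p = 2.21e-08). H2-Ob measured 15.7 and 14.4 CPM (WT) and 11.7 and 10.7 CPM (mutant) in T-labelled libraries, the lowest 4 values of the series. The other called genes were higher: H2-DMb2 by 2.61 ± 0.24, Cd74 by 1.48 ± 0.20, H2-DMb1 by 1.39 ± 0.27, H2-Aa by 1.22 ± 0.16, H2-Eb1 by 1.14 ± 0.16, Ciita by 1.12 ± 0.20 and H2-Ab1 by 0.77 ± 0.15. In all, 7 of 10 genes were called higher and 2 lower, against 32.6% and 29.3% of all genes. H2-DMa had a log2 change of 0.00 ± 0.18. On CPM, only H2-DMb2 among these 7 higher genes had a T-labelled range separate from that of 2-week HSPCs. Mean CPM of H2-Ab1 was lower in T-labelled libraries (94.3) than in 2-week HSPCs (98.9), so its direction turns on the scale of library totals. The fit scales libraries by TMM factors, which were 0.614 to 0.676 in T-labelled libraries and 1.12 to 1.19 in 2-week HSPCs. Mature B cell markers were higher in T-labelled libraries as well, 4 of 4, with sums of 35.4 to 50.9 CPM against 8.68 to 13.8 CPM, and Ms4a1 measured 26.7 to 59.7 CPM against 0.723 to 1.98 CPM. The part of B cell, neutrophil or monocyte RNA was not tested.

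Compared directly with T-labelled libraries, B cells had higher levels of 8 of the 10 genes, where 27% of all genes were called higher. H2-Ob differed most, with a log2 change of 3.50 ± 0.11 (edgeR adjusted p = 8.33e-12), followed by H2-Oa at 2.80 ± 0.26 and H2-DMb2 at 2.02 ± 0.23. The classical chains differed by 0.56 to 0.86, and H2-DMb1 was not called (-0.41 ± 0.27, adjusted p = 0.227). H2-DMa was called lower (-0.47 ± 0.18, adjusted p = 0.0461), where 25.9% of all genes were, and that call was lost in 8 of 14 alternatives. On CPM both genes ran the other way, with means of 52.4 (B) and 44.3 (T-labelled) for H2-DMa and 21 and 16.9 for H2-DMb1, so their direction depends on the scaling. The 3 comparisons among the sorted populations share libraries with one another.

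**Figure D3:**
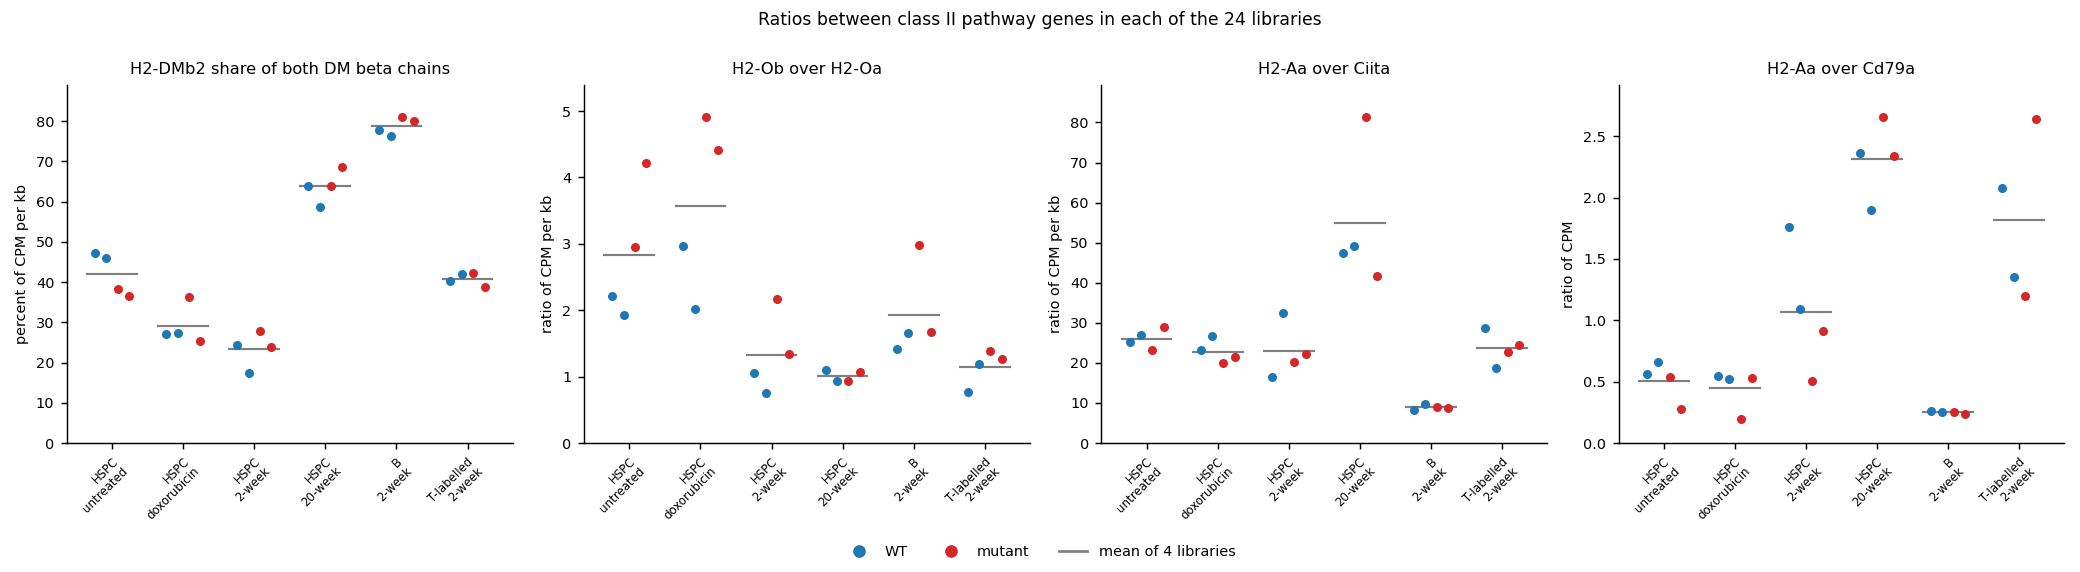
Ratios between genes in each of the 24 libraries: the H2-DMb2 share of both DM beta chains per kilobase of exon (percent), H2-Ob over H2-Oa and H2-Aa over Ciita (ratios of CPM per kilobase), and H2-Aa over Cd79a (ratio of CPM). Blue points are WT and red points mutant libraries, and the grey line is the mean of 4 libraries. B cells have the highest H2-DMb2 share and the lowest H2-Aa per Ciita, and 20-week HSPCs the highest H2-Aa per Ciita.

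Markers of mature B cells and plasma cells were higher at 20 weeks together with the class II genes (4 of 4 and 5 of 5 genes called higher). Of all counts in 20-week HSPCs, 16.9% to 26.7% fell on immunoglobulin genes or Jchain, against 3.66% to 6.22% in untreated HSPCs and 1.56% to 1.89% in B cells. The sum of 4 mature B cell markers was 131 to 273 CPM at 20 weeks and 37.5 to 77.6 CPM untreated, and none of the 4 was at 0 in either group. Of these, Cr2, a complement receptor, measured 0.606 to 1.31 CPM untreated, 12.4 to 31.8 CPM at 20 weeks and 18.2 to 24 CPM in B cells. The sum of 5 plasma cell markers was 11060 to 16730 CPM at 20 weeks and 3449 to 6826 CPM untreated. The sum of 6 B cell precursor markers ran the other way, from 2375 to 4029 CPM untreated to 1120 to 1816 CPM at 20 weeks. Sums of 7 conventional dendritic cell markers overlapped between untreated (22.8 to 31.5 CPM) and 20-week HSPCs (28.1 to 39.5 CPM). Of these markers, Xcr1 and Clec9a were higher at 20 weeks with separate ranges. Xcr1 went from 1.47 to 4.42 CPM untreated to 5.53 to 12 CPM, and Clec9a from 1.92 to 4.23 CPM to 4.67 to 7.05 CPM. Among the other markers, whose ranges overlapped, means of Itgax and Batf3 were lower at 20 weeks and those of Zbtb46, Cd209a and Clec10a higher. Sums of 8 B lineage genes overlapped (787 to 1231 CPM untreated and 1126 to 1319 CPM at 20 weeks), with 5 genes called higher and 1 lower. Sums of 5 plasmacytoid dendritic cell markers were 371 to 434 CPM untreated and 190 to 251 CPM at 20 weeks, with 1 gene called higher and 1 lower. The part of these cell types in the class II result was not tested.

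Against B lineage genes the class II levels differed between populations. Cd79a, a chain of the B cell receptor complex, measured 282 to 352 CPM at 20 weeks and 1033 to 1352 CPM in B cells. H2-Aa therefore stood at 1.90 to 2.66 times Cd79a in 20-week HSPCs and at 0.233 to 0.257 times in B cells. In untreated HSPCs it stood at 0.2745 to 0.6597 times Cd79a, below every 20-week library. Against Ms4a1, which encodes CD20 of mature B cells, H2-Aa stood at 3.66 to 5.48 times at 20 weeks, 3.69 to 5.57 times in untreated HSPCs and 0.338 to 0.451 times in B cells. The ratio to Ms4a1, unlike that to Cd79a, was thus nearly the same in both HSPC conditions, although H2-Aa and Ms4a1 were both higher at 20 weeks. In 2-week HSPCs, with 0.723 to 1.98 CPM of Ms4a1, the ratio was 47.8 to 111 times. H2-Ob stood at 1.11 to 1.19 times Cd79a in untreated HSPCs and 0.349 to 0.531 times at 20 weeks. Against Dntt, a B cell precursor marker, it did not fall: the ratio was 0.104 to 0.145 untreated and 0.120 to 0.180 at 20 weeks.

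**Figure D4:**
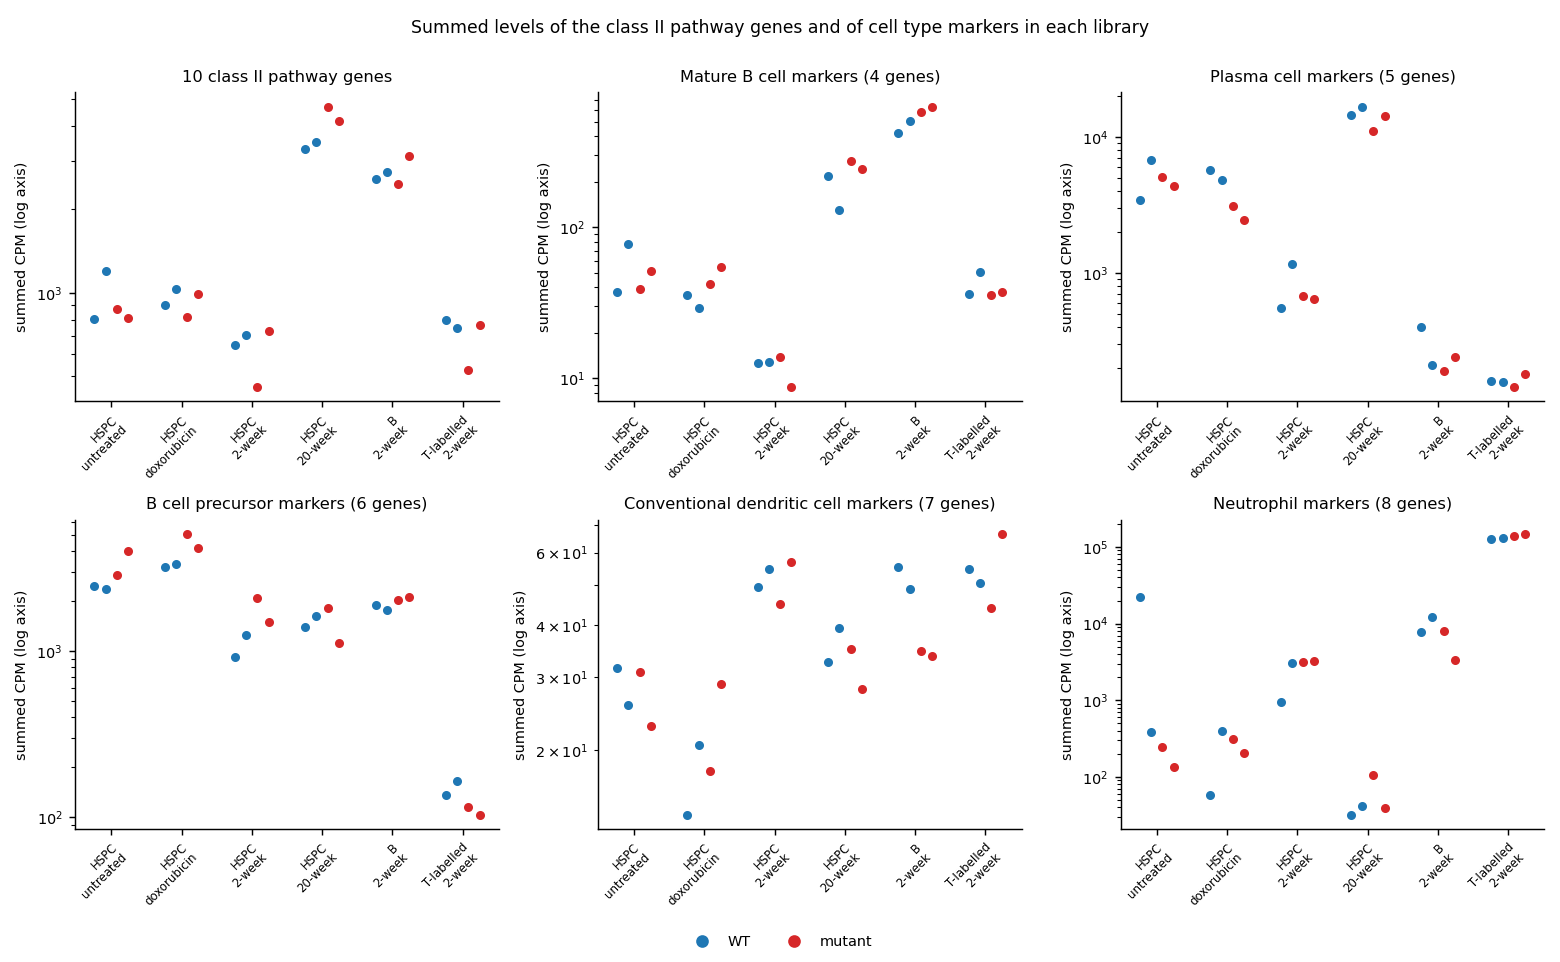
Summed CPM, on log axes, of the 10 class II genes and of 5 lists of cell type markers in each library, with WT libraries in blue and mutant libraries in red. At 20 weeks the sums of class II genes, mature B cell markers and plasma cell markers are above those of the other HSPC conditions. Neutrophil markers are highest in T-labelled libraries and, among HSPCs, in WT untreated replicate 1.

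The genes whose profile was most like the classical chains and Cd74 over the 16 HSPC libraries were Cd22 (Pearson r = 0.97), Cxcr5 (0.967), Cr2 (0.946), Scd1 (0.935) and Creld2 (0.928), out of 10903 genes with a mean of at least 5 CPM. Cd22 encodes an inhibitory B cell lectin, Cxcr5 a chemokine receptor of B cells, Scd1 a fatty acid desaturase and Creld2 a chaperone of the endoplasmic reticulum. Over all 24 libraries they were Cr2 (0.934), Cxcr5 (0.925), Fcer2a (0.881), Lipc (0.88) and Cacna1i (0.88). For Ciita over the HSPC libraries they were Cd22 (0.903), Cxcr5 (0.896), Creld2 (0.896), Cr2 (0.887) and Jund (0.878). The points share conditions, directories and depth.

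The genotype comparison asks whether the Srcap mutation changed class II expression, and 0 of the 10 genes were called by edgeR in any of 4 HSPC conditions, in their mean, in B cells or in T-labelled libraries. Of all genes, 0% were called in untreated HSPCs, 0.0154% after doxorubicin, 0.138% at 2 weeks, 0.00512% at 20 weeks, 0.133% in the mean, 0.641% in B cells and 0.0114% in T-labelled libraries. At an unadjusted p under 0.05 there were 2 genes in untreated HSPCs, 1 after doxorubicin, 1 at 2 weeks, 0 at 20 weeks, 2 in the mean, 2 in B cells and 2 in T-labelled libraries. DESeq2 called 1 gene in the mean and 0 in the other 6 comparisons. Without mutant 2-week replicate 2, edgeR called H2-DMa, H2-DMb1 and H2-Oa lower at 2 weeks, and H2-DMb1 and H2-Oa in the mean, while the calls over all genes went from 27 to 672 and from 26 to 316. The remaining mutant library at 2 weeks, replicate 1, held the lowest H2-DMa, H2-DMb1 and H2-Oa of the HSPC libraries. It also held the lowest H2-DMb2, H2-Ab1 and Cd74 among them.

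The widest gap between genotypes was that of H2-DMb2 in untreated HSPCs. The WT libraries, 20.3 and 21.3 CPM, lay above the mutant ones, both at 11.2 CPM, and the log2 change was -0.92 ± 0.29 (edgeR unadjusted p = 0.00488, adjusted p = 0.786). At 20 weeks the mutant libraries, 73 and 70.1 CPM, lay above the WT ones, 62.6 and 43 CPM. The response to 20 weeks was 1.34 ± 0.40 larger in mutant than in WT HSPCs for H2-DMb2 on the log2 scale (adjusted p = 1), and it was not called. H2-Oa was lower in mutants in the mean over the 4 conditions, with a log2 change of -0.44 ± 0.12 (unadjusted p = 0.00165, adjusted p = 0.172). Its mutant libraries lay below its WT libraries in untreated, doxorubicin and 2-week HSPCs, and the genotypes overlapped at 20 weeks. DESeq2 called this difference, as did edgeR without the count filter, and its adjusted p ran from 0.013 to 0.445 over 21 alternatives.

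H2-Ob leaned the other way, higher in mutants by 0.22 ± 0.08 in the mean over the conditions (edgeR adjusted p = 0.341), and its genotypes were separate in doxorubicin and 2-week HSPCs. They were also separate in B cells, higher in mutants (log2 change 0.29 ± 0.13, adjusted p = 0.421). In T-labelled libraries they were separate in the opposite direction, lower in mutants (-0.36 ± 0.13, adjusted p = 0.804). Cd74 measured 283 and 348 CPM (WT) and 168 and 233 CPM (mutant) after doxorubicin, a log2 change of -0.72 ± 0.33 (adjusted p = 0.51). At 20 weeks its mutant libraries lay above the WT ones, with a log2 change of 0.43 ± 0.33 (adjusted p = 1). In B cells the log2 changes of the 10 genes ran from -0.16 to 0.40, and in T-labelled libraries from -0.89 to 0.10. At 20 weeks all 10 values were above 0, from 0.06 to 0.43, and in untreated HSPCs 9 of 10 were below 0. The genotype effect was not called different between untreated HSPCs and any of the other 3 conditions, where 0% of all genes were, nor was the difference between T-labelled and B cell libraries, where 0.0172% of all genes were.

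**Figure D5:**
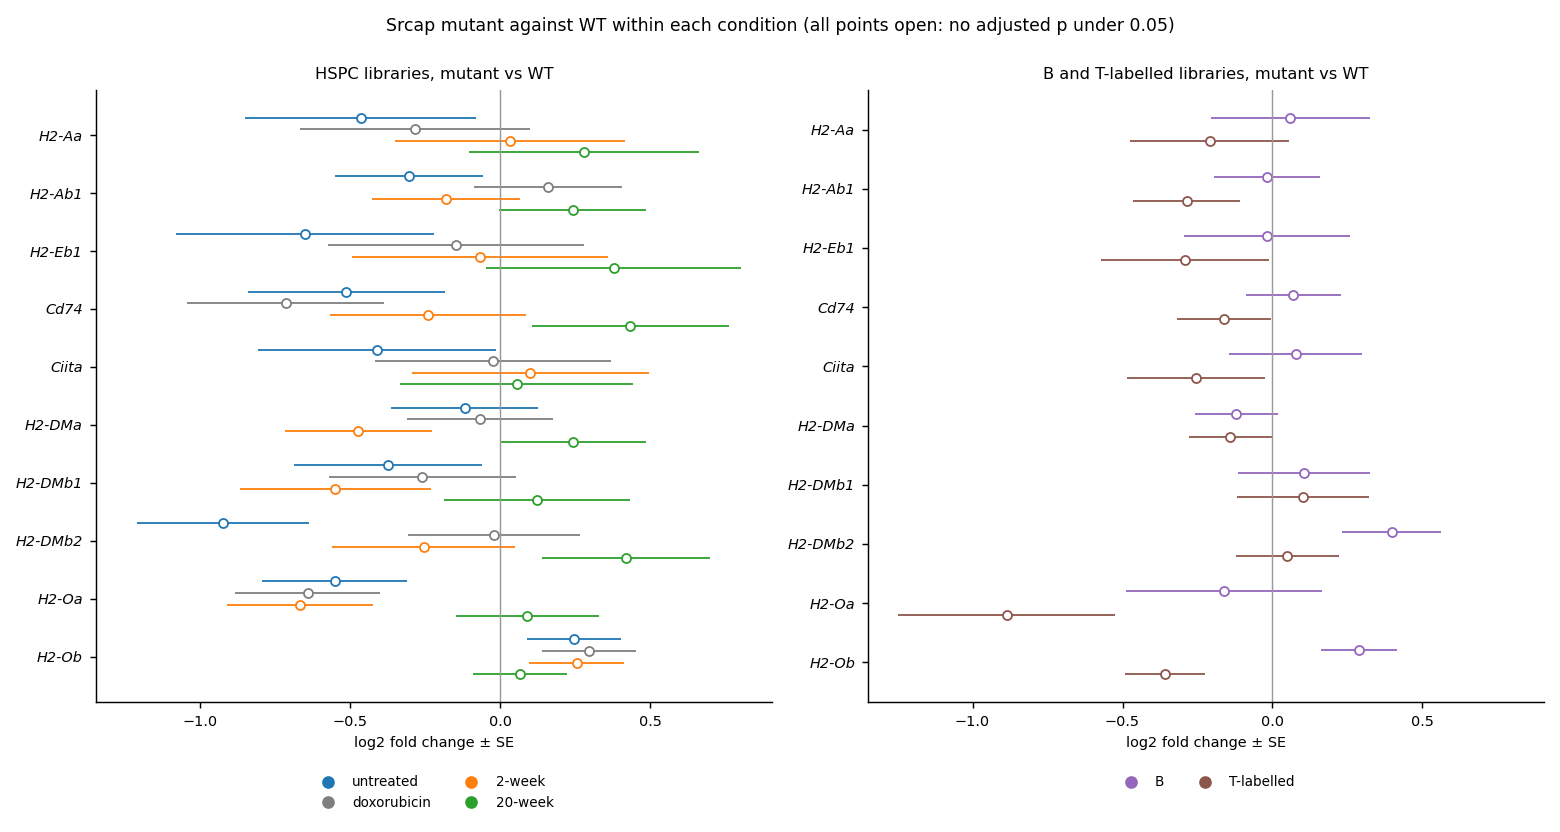
Log2 fold changes of Srcap mutant against WT for the 10 genes, with their SE from edgeR, in the 4 HSPC conditions (left) and in B and T-labelled libraries (right). All points are open because none has an adjusted p under 0.05. H2-DMb2 in untreated HSPCs lies at -0.92 and H2-Oa in T-labelled libraries at -0.89.

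The upstream factors were described by 2 lists. Shares of all genes called higher and lower, for these and the following lists, were 13.1% and 10.6% at 20 weeks against untreated HSPCs. For 2 weeks against untreated HSPCs the shares were 21.2% and 24.9%. Against 2-week HSPCs they were 28.3% and 25.5% in B cells and 32.6% and 29.3% in T-labelled libraries. Of 7 genes for the factors bound at the X and Y boxes, 0 were called higher and 2 lower at 20 weeks against untreated HSPCs: Creb1 by 0.45 ± 0.10 (log2 fall, edgeR adjusted p = 0.0044) and Rfx5 by 0.40 ± 0.13 (adjusted p = 0.0265). In B cells against 2-week HSPCs, 5 of the 7 were higher, led by Rfxank (1.33 ± 0.16, adjusted p = 7.5e-06) and Rfx5 (1.28 ± 0.11, adjusted p = 3.28e-07). Of 12 regulators of Ciita and genes of interferon gamma signalling, 3 were higher and 0 lower at 20 weeks. These were Irf4 (1.23 ± 0.27), Prdm1 (1.11 ± 0.27) and Irf1 (0.48 ± 0.11), of which Prdm1 encodes a repressor of Ciita in plasma cells. In B cells 7 of the 12 were higher and 2 lower than in HSPCs, led by Irf4 (4.84 ± 0.16) and Pax5 (3.57 ± 0.27). In T-labelled libraries 11 of the 12 were higher and 0 lower, led by Spi1 (3.20 ± 0.18), the myeloid and B cell factor PU.1. The median log2 change of this list was 0.15 at 20 weeks, 0.90 in B cells and 1.27 in T-labelled libraries.

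Downstream, the enzymes and ligases that prepare or remove class II molecules moved with the classical chains at 20 weeks. Of 9 processing genes, 8 were called higher and 0 lower than in untreated HSPCs, with a median log2 change of 0.79 against 0.02 over all genes. Not all were higher on CPM: means untreated and at 20 weeks were 131 and 97.8 for Sppl2a and 27.2 and 28.3 for March8. Ctss, the protease that trims the invariant chain, rose by 1.44 ± 0.14 (edgeR adjusted p = 2.13e-06), Ifi30, a lysosomal thiol reductase, by 1.5 ± 0.26 (adjusted p = 0.00152) and March1, a ubiquitin ligase that lowers surface class II, by 2.27 ± 0.44 (adjusted p = 0.0031). At 2 weeks Ctss was lower than in untreated HSPCs by a log2 change of -1.51 ± 0.14 (adjusted p = 6.66e-08), and 4 of the 9 genes were higher and 3 lower. In T-labelled libraries the fit called all 9 higher than in 2-week HSPCs, where 32.6% of all genes were. The largest changes were those of March1 (6.28 ± 0.35), Ctss (3.51 ± 0.14) and Ifi30 (2.84 ± 0.12). On CPM Ctsl was lower in T-labelled libraries, 20.2 to 21.9 CPM against 26.7 to 30.8 CPM in 2-week HSPCs. Mean CPM of March8 was lower too (66.2 against 73.1), so the direction of these genes depends on the scaling. In B cells 6 were higher and 1 lower.

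Costimulatory genes, which pair with class II in T cell activation, were higher in 3 of 5 cases at 20 weeks: Cd40 (2.66 ± 0.35, edgeR adjusted p = 5.06e-05), Cd83 (2.45 ± 0.28, adjusted p = 1.15e-05) and Icosl (0.82 ± 0.16, adjusted p = 0.00116). Cd40 went from 0.771 to 3.23 CPM to 7.13 to 12.9 CPM, and B cells held 67.6 to 89.7 CPM. At 2 weeks 3 of the 5 were lower than in untreated HSPCs. H2-Eb2, the only class II relative that passed the count filter, was 3.81 to 9.69 CPM untreated, 18.4 to 26.2 CPM at 20 weeks, 5.04 to 8.52 CPM in B cells and 0.171 to 0.454 CPM in T-labelled libraries. It was higher at 20 weeks by 2.31 ± 0.40 (adjusted p = 0.0014). None of these lists had a called gene in a genotype comparison, except that Ctsl was lower in mutant B cells by 0.79 ± 0.16 (log2 fall, adjusted p = 0.0449).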

How the data were processed

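The authors deposited 1 table of raw counts per library, 24 in all. Per the file headers, these counts come from featureCounts 2.0.1 run on paired reads with reverse-strand counting over exons of the GENCODE M28 annotation. Tools listed in the submitters' processing notes are FastQC, Subread and STAR, with the builds mm39 and mm10, and file coordinates are those of GRCm39. How STAR was set is not stated in the sources used. Of 55414 genes, 52081 had a symbol. The extract protocol names 30000 sorted HSPCs for all libraries, B and T cells included.

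Counts were tested with edgeR 4.0.16 (R 4.3.3; filterByExpr with a minimum count of 10, TMM, glmQLFit and glmQLFTest, Benjamini-Hochberg adjustment over all genes tested, threshold 0.05). The 16 HSPC libraries (19522 genes), the 8 B and T-labelled libraries (17484) and the 12 libraries at 2 weeks (19018) were fitted apart. Levels are CPM of total counts, with log2(CPM + 1) for correlations. Alternatives were DESeq2 1.42.0, DESeq2 size factors, no count filter, no immunoglobulin genes, the compared groups alone, a replicate block and leaving out each library. The fits were tested on simulated data: of genes changed 4-fold, 68% were called for 20 weeks against untreated among 18580 genes.

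All 10 members are named in every comparison, at most the 3 called genes with the largest change of each other list, and the 5 genes most like the class II profile. The members and lists were chosen with earlier results of these data known.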

Additional observations from a re-analysis of the deposited data

How the results depend on the processing

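Of 2340 values of a gene under an alternative, 2295 kept their call, 26 gained one and 19 lost one. No called value changed sign, and 143 values not called under either setting crossed 0. The counts of called class II genes stayed within 1.5 times in all comparisons between HSPC conditions except that with doxorubicin, and in all comparisons between sorted populations.

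Without the count filter, the count for mutant against WT went from 0 to 2 in untreated HSPCs (H2-Eb1 and H2-DMb2), to 1 after doxorubicin (Cd74), to 1 in the mean over conditions (H2-Oa), to 1 in T-labelled libraries (H2-Oa) and to 1 in the difference between T-labelled and B cell libraries (H2-Ob). It went from 0 to 3 for the 20-week response, mutant minus WT (H2-Eb1, H2-DMb2 and Cd74), and to 1 for doxorubicin against untreated HSPCs (H2-DMb2). DESeq2 called 1 gene in the mean over conditions and 1 after doxorubicin, and the fit of the compared groups alone called 1 gene (Cd74) for mutant against WT after doxorubicin. Leaving out 1 library gave 0 to 3 genes at 2 weeks and 0 to 2 in the mean, the higher counts both without mutant 2-week replicate 2. The ratio of summed CPM at 20 weeks over untreated went from 4.26 to 5.31 on TMM-scaled library sizes and 5.19 without immunoglobulin genes and Jchain. The cause of these changes was not tested. The compared groups alone could not be fitted for the mean over conditions or the difference between T-labelled and B cell libraries.

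Over all genes, edgeR, DESeq2 and edgeR without the count filter called 0, 152 and 467 genes for mutant against WT in untreated HSPCs, 3, 282 and 474 after doxorubicin, 27, 261 and 399 at 2 weeks, 1, 20 and 149 at 20 weeks, 26, 324 and 618 in the mean, 112, 337 and 590 in B cells and 2, 24 and 145 in T-labelled libraries. For doxorubicin against untreated they called 3, 99 and 421, for the difference between T-labelled and B cell libraries 3, 140 and 357, and for the responses of mutant minus WT 0, 5 and 337 (doxorubicin), 0, 133 and 468 (2 weeks) and 0, 21 and 375 (20 weeks). The compared groups alone gave 256 genes for mutant against WT after doxorubicin, 2 at 2 weeks, 4 at 20 weeks, 3 in B cells and 0 in T-labelled libraries, and 19 for doxorubicin against untreated. Leaving out 1 library gave, for mutant against WT over all genes, 0 to 250 in untreated HSPCs (highest without WT untreated replicate 2), 0 to 2 after doxorubicin, 11 to 672 at 2 weeks and 3 to 316 in the mean (both highest without mutant 2-week replicate 2), 0 to 302 at 20 weeks (highest without mutant 20-week replicate 2), 39 to 517 in B cells (lowest without mutant B replicate 2, highest without mutant B replicate 1) and 1 to 11 in T-labelled libraries. It gave 1 to 139 for doxorubicin against untreated (highest without WT untreated replicate 2) and 0 to 393 for the difference between T-labelled and B cell libraries (highest without mutant B replicate 1). For 20 weeks against untreated, leaving out 1 library gave 2947 to 4697 genes, against 4612, the lowest without mutant untreated replicate 2.

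With the replicate number as a block, 5 class II genes were called at 2 weeks against untreated HSPCs (Cd74 in addition), where 4 were without it, and the count of class II genes in the other comparisons did not change. Over all genes the block gave 284 genes in B cells, 101 in T-labelled libraries, 16 at 2 weeks, 13 in the mean, 2 at 20 weeks and 35 for the difference between T-labelled and B cell libraries. Deviations of same-numbered WT and mutant libraries correlated at -0.13 to 0.14 over 6 pairs, against -0.25 to 0.27 over 60 other pairs. The other pairs are also matched by number, some across cell types at 2 weeks. Erythroid sums in B cells were higher in replicate 1 than replicate 2 (16300 and 9168 CPM in WT, 11560 and 6119 in mutant). The same held in T-labelled libraries (9428 and 5204 CPM in WT, 6231 and 2860 in mutant). In both 2-week HSPC groups replicate 2 was higher. These correlations do not settle whether same-numbered libraries are paired.

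With 2 libraries per group, small genotype differences are weakly resolved: in simulated data, 53% of genes changed 2-fold between genotypes were called in B cells, among 16618 genes.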

Other observations

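Genes of the class I pathway, which presents peptides from inside the cell to CD8 T cells, were also higher at 20 weeks than in untreated HSPCs. Of 15 genes, 11 were called higher and 0 lower by edgeR, against 13.1% and 10.6% of all genes. Their median log2 change was 0.60, against 0.02 over all genes and 2.31 for the class II genes. Psmb10, an immunoproteasome subunit, rose by 0.95 ± 0.20 (adjusted p = 0.0037), H2-D1, a classical heavy chain, by 0.84 ± 0.12 (adjusted p = 0.000102) and Calr, a chaperone of heavy chain loading, by 0.83 ± 0.09 (adjusted p = 9.79e-06). H2-D1 measured 832 to 1058 CPM in untreated and 1162 to 1460 CPM in 20-week HSPCs, and the ranges were separate. At 2 weeks 7 of the 15 genes were higher and 2 lower than in untreated HSPCs, against 21.2% and 24.9% of all genes. In B cells against 2-week HSPCs, 4 of the 15 were higher and 6 lower, against 28.3% and 25.5% of all genes. Of the 10 class II genes, 9 were higher there.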
